A study of Homo sapiens with 12 samples.

Results

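A set of 10 genes that control how glucose enters glycolysis and where its carbon leaves was followed in RNA of HCT116 cells, an established colorectal cancer line of human origin that keeps working p53. They are the glucose transporters SLC2A1 and SLC2A3, the hexokinases HK1 and HK2 with the hexokinase-like HKDC1, the regulatory enzymes PFKFB3, PFKFB4 and TIGAR, the kinase PDK1 and the lactate dehydrogenase LDHA. All 10 were found, out of 23195 genes listed for the Nutlin-3a comparisons, and all 10 were among the 19393 genes listed in every comparison. They were matched by gene symbol as a functional group, but HKDC1 was selected on a measured value, its large difference in Nutlin-3a effect between the siRNAs. Every value of HKDC1 is therefore a description without a test, and so is that difference for the other 9 genes.

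The cells had been transfected with siRNA, either a control (siControl) or one directed at the transcription factor RFX7 (siRFX7). They then received 10 µM Nutlin-3a, an inhibitor of MDM2 that activates p53, or the solvent DMSO for 24 h. The 4 groups are thus siControl with DMSO, siControl with Nutlin-3a, siRFX7 with DMSO and siRFX7 with Nutlin-3a, with 3 replicates each. In these bulk samples, fewer cells of a kind and less RNA per cell cannot be told apart. The labels do not say whether replicates came from separate cultures, so p-values measure the spread between these samples, which may be technical. The sequence and number of siRNAs against RFX7 are not given in the sources used here, nor was a rescue among the groups.

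Glucose crosses the plasma membrane through SLC2A carriers and is trapped by hexokinases as glucose phosphate. PFKFB enzymes make or remove the fructose bisphosphate that switches on phosphofructokinase, and TIGAR, a p53 target, removes it, which turns carbon toward the pentose phosphate pathway. Pyruvate is turned to lactate by LDHA or oxidised in mitochondria, an entry that PDK1 blocks by phosphorylating pyruvate dehydrogenase. Many of these genes are known targets of HIF1 and MYC, and cultured carcinoma cells such as HCT116 rely on glycolysis even with oxygen present.

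In GENCODE 29 on GRCh38 the genes span these positions, exons and introns included. SLC2A1 (ENSG00000117394) lies on chromosome 1 from 42925375 to 42959176, minus strand, and SLC2A3 (ENSG00000059804) lies on chromosome 12 from 7919230 to 7936275, minus strand. HK1 (ENSG00000156515) lies on chromosome 10 from 69269984 to 69401884, plus strand, and HK2 (ENSG00000159399) lies on chromosome 2 from 74833981 to 74893359, plus strand. PFKFB3 (ENSG00000170525) lies on chromosome 10 from 6144934 to 6254644, plus strand, and PFKFB4 (ENSG00000114268) lies on chromosome 3 from 48517684 to 48562015, minus strand. TIGAR (ENSG00000078237) lies on chromosome 12 from 4307763 to 4354593, plus strand, and PDK1 (ENSG00000152256) lies on chromosome 2 from 172555373 to 172608669, plus strand. LDHA (ENSG00000134333) lies on chromosome 11 from 18394388 to 18408425, plus strand, and HKDC1 (ENSG00000156510) beside HK1.

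Start-site sequences from RefSeq (GRCh38.p14), 250 bases before to 50 after each annotated start, were found for 9 of the 10 genes all but SLC2A3, in 19 windows, some of which overlap. HKDC1 is shown because its RNA responded differently to Nutlin-3a under the 2 siRNAs, and LDHA because its window held the most matches to the hypoxia response core ACGTG. Each is printed 5′ to 3′ on the strand of its gene, chr10:69220082-69220381 for HKDC1 and chr11:18394313-18394612 for LDHA, both on the plus strand. Capitals mark the motif matches.
HKDC1: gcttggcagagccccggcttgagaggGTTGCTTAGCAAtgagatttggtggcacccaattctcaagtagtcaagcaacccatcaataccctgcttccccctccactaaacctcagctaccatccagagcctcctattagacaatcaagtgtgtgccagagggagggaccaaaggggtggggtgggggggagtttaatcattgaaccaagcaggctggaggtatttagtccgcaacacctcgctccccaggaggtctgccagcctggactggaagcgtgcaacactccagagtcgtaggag
LDHA: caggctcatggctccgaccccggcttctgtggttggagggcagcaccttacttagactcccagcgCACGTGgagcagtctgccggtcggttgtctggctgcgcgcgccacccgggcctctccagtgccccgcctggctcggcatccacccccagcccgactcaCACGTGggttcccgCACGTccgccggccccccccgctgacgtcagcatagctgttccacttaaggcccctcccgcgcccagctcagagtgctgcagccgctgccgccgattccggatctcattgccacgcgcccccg

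Motifs were searched on both strands, so ACGTG and its overlapping reverse match in CACGTG count separately. ACGTG was found in 6 of the 19 windows, belonging to HK2, LDHA, PDK1, PFKFB3 and TIGAR, and in 21.4% of all 35116 promoter windows. The X-box element GTTGCC, part of the site that RFX factors bind, was in none of the 19 windows and in 12.2% of all windows. A fuller X-box pattern, GTTGC then 2 to 5 bases then GCAA, was chosen after the HKDC1 sequence was seen. It was found in 1 of the 19 windows, that of HKDC1, where it begins at position -224 from the start, and in 0.888% of all windows. The ATF4 core TGATGNAA was found in 2 overlapping windows of HK1 and in 3.62% of all windows. The paired p53 core, CATG then 6 bases then CATG, was in no window of these genes and in 0.373% of all windows. These matches are letters in a window and were not tested for binding.

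The data were 4 tables of statistics per gene, so each gene is shown by its fitted group means, in normalized counts with the model standard error, rather than by library. Normalized counts summed to between 25915992 and 27407526 per group. The model spread between replicates had a coefficient of variation of 3.72% for HK1, the steadiest of the 10 genes, to 19.2% for HKDC1, the least abundant. By the authors' deposited tables RFX7, the siRNA target, stood at 19.6% (DMSO) and 22.6% (Nutlin-3a) of its siControl level. The p53 targets MDM2 and CDKN1A rose with Nutlin-3a under both siRNAs, by 3.99 and 4.46 on the log2 scale in siControl and by 3.30 and 3.53 in siRFX7 (authors' deposited tables). With siRFX7 in DMSO they already stood at 1.40-fold and 2.44-fold their siControl levels (DESeq2 adjusted p 1.19e-12 and 5.01e-39, authors' deposited table). In Nutlin-3a, MDM2 stood at 86.6% and CDKN1A at 128% of siControl (DESeq2 adjusted p 0.00456 and 0.00117, authors' deposited table). All 7 epithelial markers were listed, at mean counts of 698 to 80338 and a summed level of 118720 to 280909 across groups, while among leukocyte markers 1 of 4 was listed, at 2.05 counts, and PTPRC, CD3E and CD68 were not. Of the endothelial markers, VWF alone was listed of 3, at 13.5 counts. Of the fibroblast markers 3 of 4 were listed, COL1A1 at 441 counts and the others under 2 counts, and their summed level over genes with group means was 349 to 515 counts across groups; the part of other cells in the results was not tested.

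**Figure D1:**
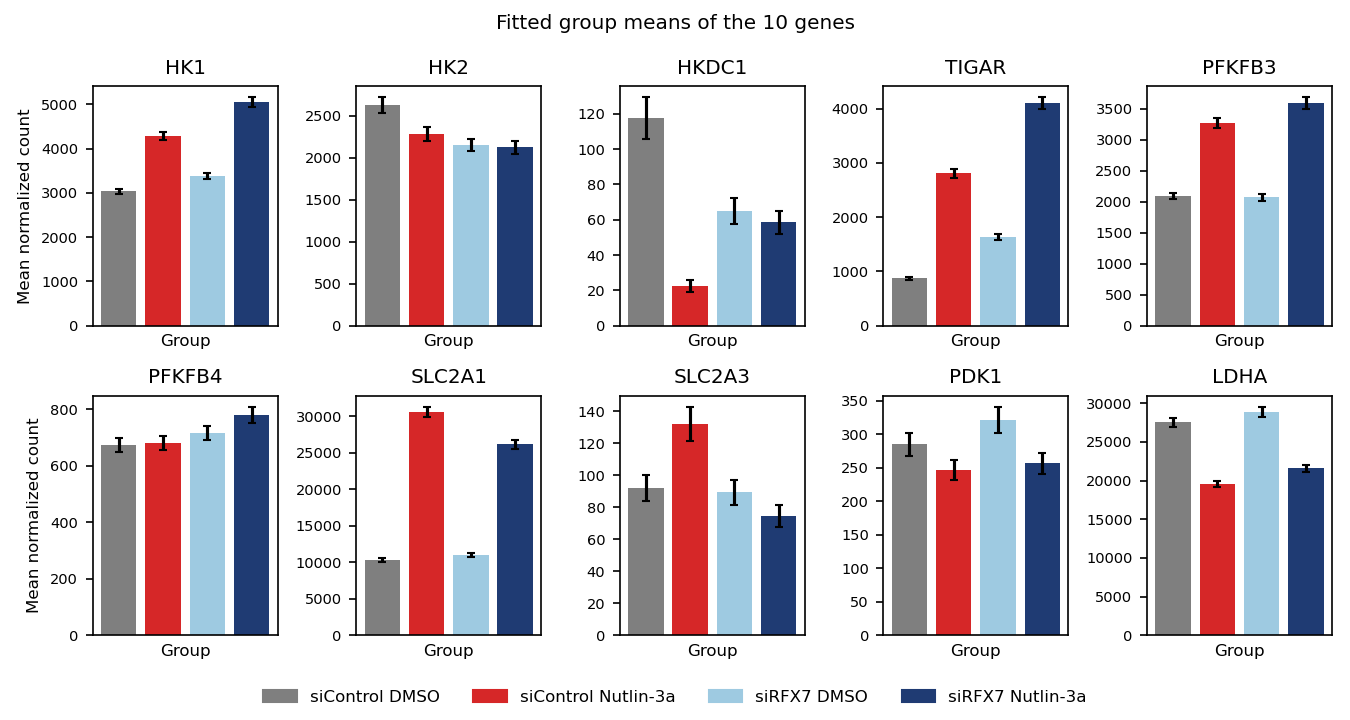
Fitted group means of the 10 genes in normalized counts, 1 panel per gene with its own axis from 0; bars are the 4 groups and error bars the model standard error. TIGAR, SLC2A1, HK1 and PFKFB3 were higher with Nutlin-3a under both siRNAs, and HKDC1 had its lowest mean, 22.3, in siControl with Nutlin-3a.

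With Nutlin-3a in siControl, the carrier SLC2A1, TIGAR, PFKFB3, HK1 and SLC2A3 rose and LDHA and HK2 fell. In the authors' deposited table, 5 of the 9 genes other than HKDC1 were called higher and 2 lower (DESeq2 adjusted p under 0.05), against 22% and 21.2% of all genes. The shares of all genes, here and below, include genes of very low count, whereas SLC2A3, the least abundant of the 9, had a mean count of 97.0. Shares among genes of like count were not computed, so an excess over all genes is not read as a trait of the 9 genes. Under siRFX7, 4 of the 9 were called higher (HK1, PFKFB3, SLC2A1 and TIGAR) and 2 lower (LDHA and PDK1) in the authors' deposited table, against 21.7% and 19.7% of all genes. The median log2 fold change of the 9 genes was 0.50 in siControl and 0.12 in siRFX7, beside 0.02 and -0.02 over all genes. These medians are the values of different genes, HK1 in siControl and PFKFB4 in siRFX7. The median of the differences per gene, siRFX7 minus siControl, was 0.08, so the medians do not show a weaker response gene by gene.

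With siRFX7 in DMSO, 2 of the 9 genes were called higher (HK1 and TIGAR) and HK2 lower in the authors' deposited table, against 13.5% and 15.5% of all genes. In Nutlin-3a, 5 were called higher (HK1, LDHA, PFKFB3, PFKFB4 and TIGAR) and 2 lower (SLC2A1 and SLC2A3) in the authors' deposited table, against 15% and 13.6% of all genes. Most of these siRFX7 effects were small. Of the 9 genes, those with a called change of at least 0.58 on the log2 scale were TIGAR in DMSO and SLC2A3 in Nutlin-3a. The median log2 fold change of the 9 genes was 0.08 in DMSO and 0.14 in Nutlin-3a, beside -0.00 and 0.00 over all genes. Each of the 4 groups serves both a Nutlin-3a and a siRFX7 comparison, so the values of a gene in those comparisons are not independent.

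**Figure D2:**
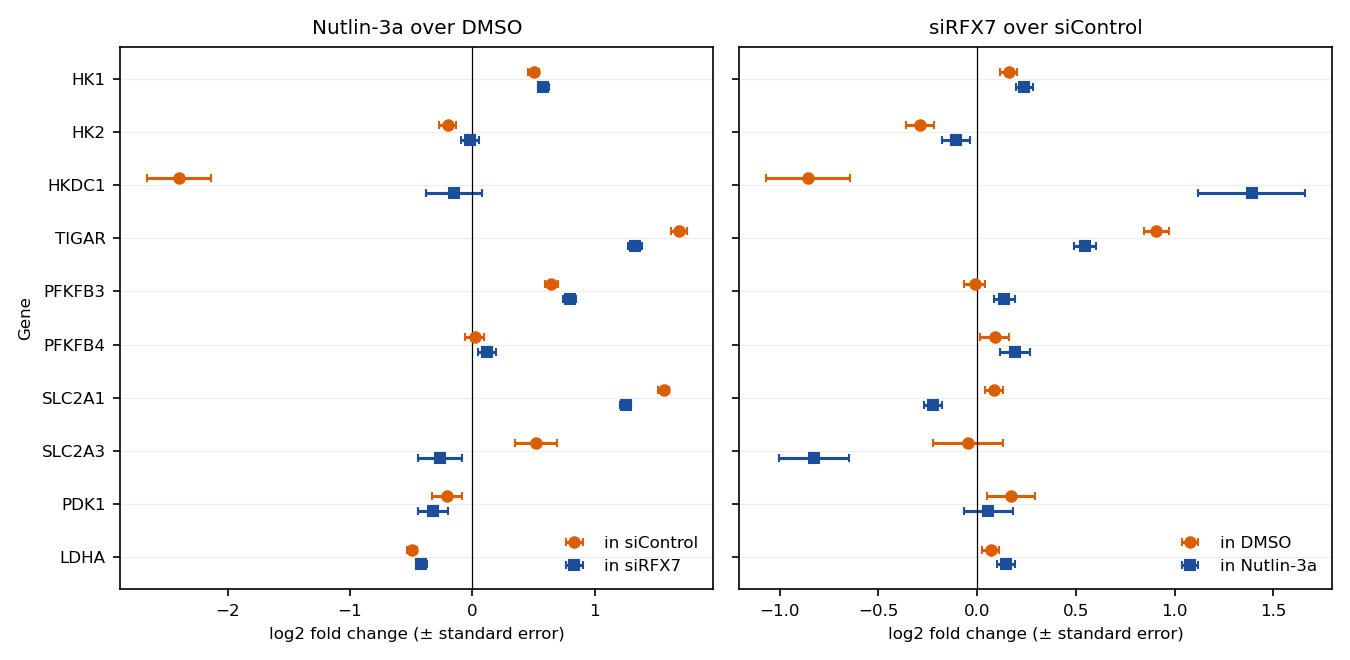
Log2 fold changes of the 10 genes from the authors' deposited tables with their standard errors. The left panel gives Nutlin-3a over DMSO in siControl (circles) and siRFX7 (squares), the right panel siRFX7 over siControl in DMSO (circles) and Nutlin-3a (squares); HKDC1 lay at -2.40 and -0.15 on the left and at -0.86 and 1.39 on the right.

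SLC2A1 encodes GLUT1, the carrier for basal glucose uptake in most cells. Its fitted mean was 10351 ± 233 normalized counts in siControl with DMSO, 30563 ± 673 in siControl with Nutlin-3a, 10977 ± 247 in siRFX7 with DMSO and 26163 ± 577 in siRFX7 with Nutlin-3a. Both Nutlin-3a groups stood far above both DMSO groups. The rise was 2.95-fold in siControl (log2 1.56, standard error 0.05, DESeq2 adjusted p 9.01e-257, authors' deposited table) and 2.38-fold in siRFX7 (log2 1.25, standard error 0.05, adjusted p 1.26e-165). With siRFX7, SLC2A1 was 1.06-fold its siControl level in DMSO (DESeq2 adjusted p 0.165) and fell in Nutlin-3a to 85.6% of it (adjusted p 7.14e-06, authors' deposited tables). The 2 Nutlin-3a log2 effects differed by -0.31 (standard error 0.06). SLC2A1-AS1, on the other strand across SLC2A1, had a mean of 25.8 counts, or 0.132% of SLC2A1, and strand handling is not given in the sources used here.

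SLC2A3 encodes GLUT3, a high-affinity carrier best known from neurons. Fitted means of SLC2A3 were 92.2 ± 8.0 normalized counts in siControl with DMSO, 132 ± 11 in siControl with Nutlin-3a, 89.3 ± 7.8 in siRFX7 with DMSO and 74.4 ± 6.8 in siRFX7 with Nutlin-3a. The siControl Nutlin-3a group was high, and the other 3 groups lay between 74.4 and 92.2. Nutlin-3a raised SLC2A3 1.43-fold in siControl (log2 0.52, standard error 0.17, DESeq2 adjusted p 0.00685, authors' deposited table). In siRFX7 the log2 value was -0.26 (standard error 0.18, DESeq2 adjusted p 0.261, authors' deposited table), and the 2 effects differed by -0.78 (standard error 0.25). With siRFX7 in Nutlin-3a, SLC2A3 fell to 56.4% of siControl (log2 -0.83, DESeq2 adjusted p 2.63e-05, authors' deposited table), whereas in DMSO the log2 value was -0.05 (adjusted p 0.889). Per kilobase of annotated exon, SLC2A3 made up 0.218% to 0.679% of the summed SLC2A1 and SLC2A3 level across the groups. Its near-identical paralog SLC2A14 was looked for but was not among the genes listed, and reads could be shared between SLC2A3 and SLC2A14.

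HK1 is the housekeeping hexokinase of most tissues, bound to the outer mitochondrial membrane. HK1 had fitted means of 3030 ± 67 normalized counts in siControl with DMSO, 4281 ± 91 in siControl with Nutlin-3a, 3383 ± 74 in siRFX7 with DMSO and 5050 ± 106 in siRFX7 with Nutlin-3a. Each of the 2 changes raised it, and the group with both was the highest. Nutlin-3a raised HK1 1.41-fold in siControl (DESeq2 adjusted p 3.21e-28) and 1.49-fold in siRFX7 (adjusted p 9.69e-39), with log2 values of 0.50 and 0.58 and a standard error of 0.04 each in the authors' deposited tables. With siRFX7, HK1 rose 1.12-fold in DMSO (DESeq2 adjusted p 0.00222) and 1.18-fold in Nutlin-3a (adjusted p 5.33e-07, authors' deposited tables).

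HK2 is the inducible hexokinase of muscle, fat and many tumours. Its fitted means were 2627 ± 90 normalized counts in siControl with DMSO, 2282 ± 79 in siControl with Nutlin-3a, 2152 ± 75 in siRFX7 with DMSO and 2121 ± 74 in siRFX7 with Nutlin-3a. The siControl DMSO group was high, and the other 3 lay within 2 standard errors of their neighbours. Nutlin-3a lowered HK2 to 86.8% in siControl (log2 -0.20, standard error 0.07, DESeq2 adjusted p 0.0106, authors' deposited table), and in siRFX7 the log2 value was -0.02 (standard error 0.07, adjusted p 0.861). With siRFX7 in DMSO it fell to 81.9% of siControl (log2 -0.29, DESeq2 adjusted p 0.000332, authors' deposited table), and in Nutlin-3a the log2 value was -0.11 (adjusted p 0.290). The pseudogene HK2P1 had a mean of 275 counts, 11.99% of HK2, and reads could be shared between them.

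Levels can be compared between these genes per kilobase of exon, with lengths from GENCODE 29 since the annotation used for counting is not given in the sources used here. In siControl with DMSO, HK1 and HK2 stood at 481 and 433 normalized counts per kilobase and HKDC1 at 27.6, which gave shares of 51.1%, 46.0% and 2.93% of the 3 together. With Nutlin-3a in siControl the shares were 64.1%, 35.4% and 0.494%. Under siRFX7 the DMSO shares were 59.2%, 39.1% and 1.68%, and those with Nutlin-3a were 68.8%, 30.01% and 1.18%. The hexokinase pool thus held more HK1 in both Nutlin-3a groups than in the DMSO group of the same siRNA. Over all 10 genes in siControl with DMSO, LDHA was highest at 4429 per kilobase, followed by SLC2A1 at 2191, HK1, HK2, PFKFB3 at 342, TIGAR at 217, PFKFB4 at 110, HKDC1, PDK1 at 19.2 and SLC2A3 at 15.0. With Nutlin-3a in siControl the order became SLC2A1 at 6470, LDHA at 3144, TIGAR at 699, HK1 at 680, PFKFB3 at 534, HK2 at 376, PFKFB4 at 112, SLC2A3 at 21.4, PDK1 at 16.6 and HKDC1 at 5.24. In that order TIGAR and HK1 lay within the model error of each other.

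PFKFB3 is the PFKFB enzyme with the highest ratio of kinase to phosphatase activity and so favours glycolysis. Its fitted means were 2094 ± 56 normalized counts in siControl with DMSO, 3268 ± 83 in siControl with Nutlin-3a, 2075 ± 55 in siRFX7 with DMSO and 3595 ± 91 in siRFX7 with Nutlin-3a. The Nutlin-3a groups stood above the DMSO groups. The rise was 1.56-fold in siControl (log2 0.64, standard error 0.05, DESeq2 adjusted p 2.53e-32) and 1.73-fold in siRFX7 (log2 0.79, standard error 0.05, adjusted p 2.19e-49) in the authors' deposited tables. With siRFX7, PFKFB3 had a log2 value of -0.01 in DMSO (DESeq2 adjusted p 0.898) and rose by 0.14 in Nutlin-3a (adjusted p 0.0306, authors' deposited tables). PFKFB4, the related enzyme found mainly in testis and tumours, had fitted means of 673 ± 25, 681 ± 25, 715 ± 26 and 778 ± 28 normalized counts in the same order of groups. Its Nutlin-3a log2 values were 0.02 in siControl (standard error 0.08, DESeq2 adjusted p 0.887) and 0.12 in siRFX7 (standard error 0.07, adjusted p 0.189), and siRFX7 raised it in Nutlin-3a by 0.19 (adjusted p 0.0371, authors' deposited tables). In DMSO its siRFX7 log2 value was 0.09 (DESeq2 adjusted p 0.426, authors' deposited table).

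TIGAR, which opposes the PFKFB kinases, had fitted means of 872 ± 28 normalized counts in siControl with DMSO, 2807 ± 78 in siControl with Nutlin-3a, 1635 ± 48 in siRFX7 with DMSO and 4097 ± 111 in siRFX7 with Nutlin-3a. No pair of groups lay within 2 model standard errors of each other, and the group with both siRFX7 and Nutlin-3a was the highest. Nutlin-3a raised TIGAR 3.22-fold in siControl (log2 1.69, standard error 0.06, DESeq2 adjusted p 4.96e-164) and 2.51-fold in siRFX7 (log2 1.33, standard error 0.06, adjusted p 4.78e-116) in the authors' deposited tables. With siRFX7 it rose 1.87-fold in DMSO (log2 0.91, DESeq2 adjusted p 6.53e-45) and 1.46-fold in Nutlin-3a (log2 0.55, adjusted p 2.03e-20, authors' deposited tables). The Nutlin-3a log2 effects differed by -0.36 (standard error 0.08), so that the fold was smaller on a higher starting level.

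LDHA turns pyruvate into lactate. LDHA had fitted means of 27505 ± 595 normalized counts in siControl with DMSO, 19527 ± 424 in siControl with Nutlin-3a, 28826 ± 623 in siRFX7 with DMSO and 21596 ± 469 in siRFX7 with Nutlin-3a. Both Nutlin-3a groups lay below both DMSO groups. Nutlin-3a lowered LDHA to 71.0% in siControl (log2 -0.49, standard error 0.04, DESeq2 adjusted p 7.71e-28) and to 74.9% in siRFX7 (log2 -0.42, standard error 0.04, adjusted p 4.75e-20, authors' deposited tables). With siRFX7 it rose 1.11-fold in Nutlin-3a (DESeq2 adjusted p 0.00559), and in DMSO the log2 value was 0.07 (adjusted p 0.270, authors' deposited tables). The tables listed 6 LDHA pseudogenes, with mean counts that summed to 18.3% of LDHA, so reads could be shared. LDHAP4 alone held 14.6%, with Nutlin-3a log2 values of -0.42 and -0.37 in the authors' deposited tables.

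PDK1 had fitted means of 285 ± 17 normalized counts in siControl with DMSO, 247 ± 15 in siControl with Nutlin-3a, 321 ± 19 in siRFX7 with DMSO and 257 ± 16 in siRFX7 with Nutlin-3a. The Nutlin-3a groups had the lower means under each siRNA. The fall passed the test in siRFX7 (log2 -0.32, standard error 0.12, DESeq2 adjusted p 0.0223), and in siControl the log2 value was -0.21 (standard error 0.12, adjusted p 0.178, authors' deposited tables). The siRFX7 log2 values of PDK1 were 0.17 in DMSO and 0.06 in Nutlin-3a (DESeq2 adjusted p 0.319 and 0.797, authors' deposited tables).

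HKDC1 lies head to tail with HK1 on chromosome 10 in GRCh38, from 69220303 to 69267559 on the plus strand, with 2424 bases between the end of HKDC1 and the start of HK1 in GENCODE 29. Its protein is a hexokinase-domain protein with low glucose phosphorylating activity, known from gut epithelium, liver and several carcinomas. Its fitted means were 118 ± 12 normalized counts in siControl with DMSO, 22.3 ± 3.3 in siControl with Nutlin-3a, 64.9 ± 7.2 in siRFX7 with DMSO and 58.5 ± 6.6 in siRFX7 with Nutlin-3a. The siControl groups were the highest and the lowest, and the siRFX7 groups lay between them and within 1 model standard error of each other. Nutlin-3a took HKDC1 5.27-fold lower in siControl (log2 -2.40, standard error 0.26), and in siRFX7 its log2 value was -0.15 (standard error 0.23, authors' deposited tables). With siRFX7 its log2 values were -0.86 in DMSO (standard error 0.21) and 1.39 in Nutlin-3a (standard error 0.27, authors' deposited tables), so the sign differed between treatments. The difference of the Nutlin-3a effects was 2.25 (standard error 0.35). Its neighbour HK1 moved the other way with Nutlin-3a in siControl. AL596223.1, an antisense gene across HKDC1, had a mean of 5.99 counts.

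The 5 genes nearest to HKDC1 in pattern were taken by the distance between log2 levels in the 4 groups, each centred on its own mean, among 13722 genes with a mean count of at least 50. They were AL672207.1 at a distance of 0.23 log2 units, IL20RB at 0.62, LYPD5 at 0.71, TUBB4B at 0.72 and LYPD6 at 0.75. AL672207.1 is a processed pseudogene whose reads could belong to a parent gene, IL20RB is a cytokine receptor subunit, LYPD5 and LYPD6 are Ly6-domain proteins and TUBB4B is a beta tubulin. AL672207.1 had fitted means of 106, 19.3, 68.1 and 51.2 normalized counts in the groups in the order given for HKDC1. IL20RB had 101, 26.8, 50.1 and 39.4 in the same order. With Pearson distance, which ignores the size of a change, 1 of the 5 nearest genes was shared, LYPD5. No other of the 10 genes was among the nearest by either measure. The pattern rests on 4 group means per gene that share one fit.

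**Figure D3:**
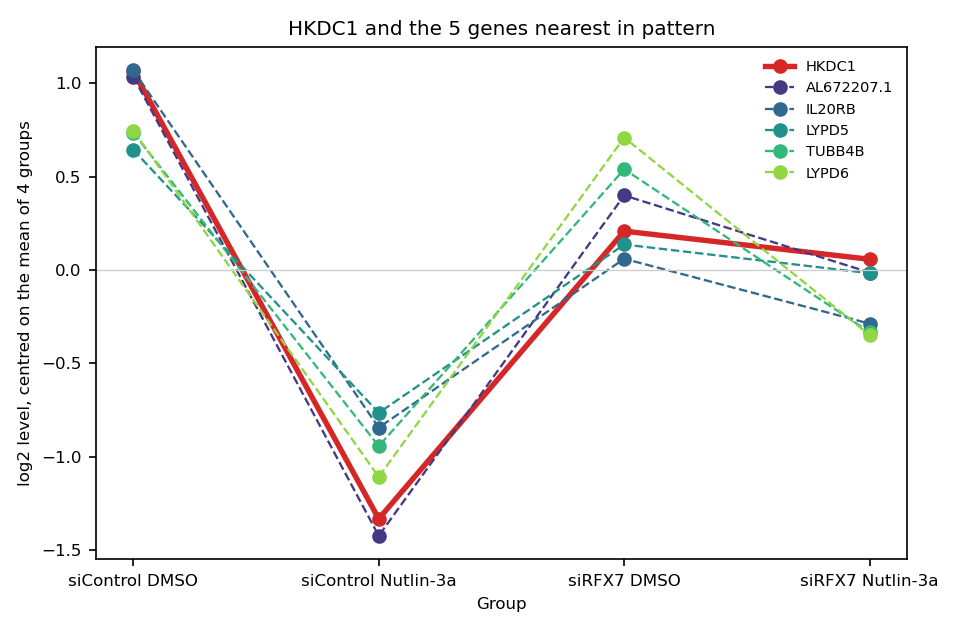
Log2 levels of HKDC1 (thick line) and the 5 nearest genes (dashed) in the 4 groups, each centred on its mean over groups. All 6 had their lowest level in siControl with Nutlin-3a; LYPD6, the farthest of the 5 at 0.75, fell further with Nutlin-3a under siRFX7 than HKDC1 did.

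The difference between the Nutlin-3a effects under the 2 siRNAs is part of how the group was chosen. A z test of this difference called 6.2% of 23195 genes at an adjusted p below 0.05, given as background. The 10 genes are described here by their values. Calls of this z test among them are listed only in the closing sections, and nothing is read from those calls. For the genes not yet given, the difference was 0.08 for HK1 (standard error 0.06), 0.18 for HK2 (standard error 0.10), 0.15 for PFKFB3 (standard error 0.08), 0.10 for PFKFB4 (standard error 0.11), -0.12 for PDK1 (standard error 0.17) and 0.08 for LDHA (standard error 0.06).

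Of 18 other enzymes of glycolysis, 15 were listed. By the authors' deposited tables, 4 of them rose and 3 fell with Nutlin-3a in siControl, against 4 that rose and 4 that fell in siRFX7. Their median log2 values were 0.05 and -0.04, beside 0.02 and -0.02 over all genes. Of all genes, 22% were called higher and 21.2% lower in siControl, and 21.7% and 19.7% in siRFX7. These shares are also the background for the Nutlin-3a counts of the lists that follow. The phosphofructokinase subunits PFKL and PFKM, which the PFKFB product activates, rose with Nutlin-3a by 0.44 and 0.52 in siControl and, under siRFX7, by 0.56 and 0.36 (authors' deposited tables, DESeq2 adjusted p 4.18e-14, 3.80e-17, 3.51e-22 and 3.61e-08). TPI1 and PGAM1, enzymes of the middle of the pathway, fell in siControl by 0.38 and 0.23 (DESeq2 adjusted p 0.0104 and 2.03e-05, authors' deposited table). Of the abundant enzymes, GAPDH, PGK1, ENO1, LDHB and GPI were not called with Nutlin-3a under either siRNA in the authors' deposited tables. PKM, highest in mean count, rose by 0.15 in siControl and 0.19 in siRFX7 (DESeq2 adjusted p 0.0162 and 0.00186, authors' deposited tables). TPI1 and PGAM1 were called lower in siRFX7 too, at -0.51 and -0.27 (DESeq2 adjusted p 0.000351 and 5.39e-07, authors' deposited table).

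With siRFX7, 2 of the 15 glycolytic enzymes were called higher and 5 lower in DMSO, and 1 higher and 3 lower in Nutlin-3a (authors' deposited tables), with medians of -0.09 and -0.02. Of all genes, 13.5% were called higher and 15.5% lower in DMSO, and 15% and 13.6% in Nutlin-3a. These shares are also the background for the siRFX7 counts of the lists that follow. PFKM, the muscle-type phosphofructokinase, fell by 1.08 in DMSO and 1.24 in Nutlin-3a on the log2 scale (standard error 0.06 each, DESeq2 adjusted p 1.11e-66 and 8.36e-90, authors' deposited tables). Its fitted means were 4868 normalized counts in siControl with DMSO, 6984 in siControl with Nutlin-3a, 2296 in siRFX7 with DMSO and 2951 in siRFX7 with Nutlin-3a, so both siRFX7 groups lay below both siControl groups. By the authors' deposited tables PGK1 had log2 values of -0.39 and -0.43 and GAPDH of -0.17 and -0.21, all called.

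Among 13 other hexokinase and glucose carrier genes 9 were listed with Nutlin-3a and 8 with siRFX7. By the authors' deposited tables Nutlin-3a raised 4 in siControl and 5 in siRFX7 and lowered none, with medians of 0.79 and 0.36. SLC2A12 rose by 2.65 in siControl and 1.45 in siRFX7, and SLC2A9, a urate and hexose carrier, by 1.69 and 1.09, in the authors' deposited tables. SLC2A4, the insulin-responsive carrier, rose by 1.01 and 0.69, and SLC2A6 by 0.79 and 0.24, in the authors' deposited tables. With siRFX7, 2 of 8 were higher and none lower in DMSO, and 2 higher and 3 lower in Nutlin-3a (authors' deposited tables), with medians of 0.17 and -0.13. SLC2A12, SLC2A11 and SLC2A6 fell in Nutlin-3a by 0.85, 0.70 and 0.33, as SLC2A1 and SLC2A3 did (authors' deposited table). SLC2A9 and SLC2A8 rose there by 0.89 and 0.28 (authors' deposited table).

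**Figure D4:**
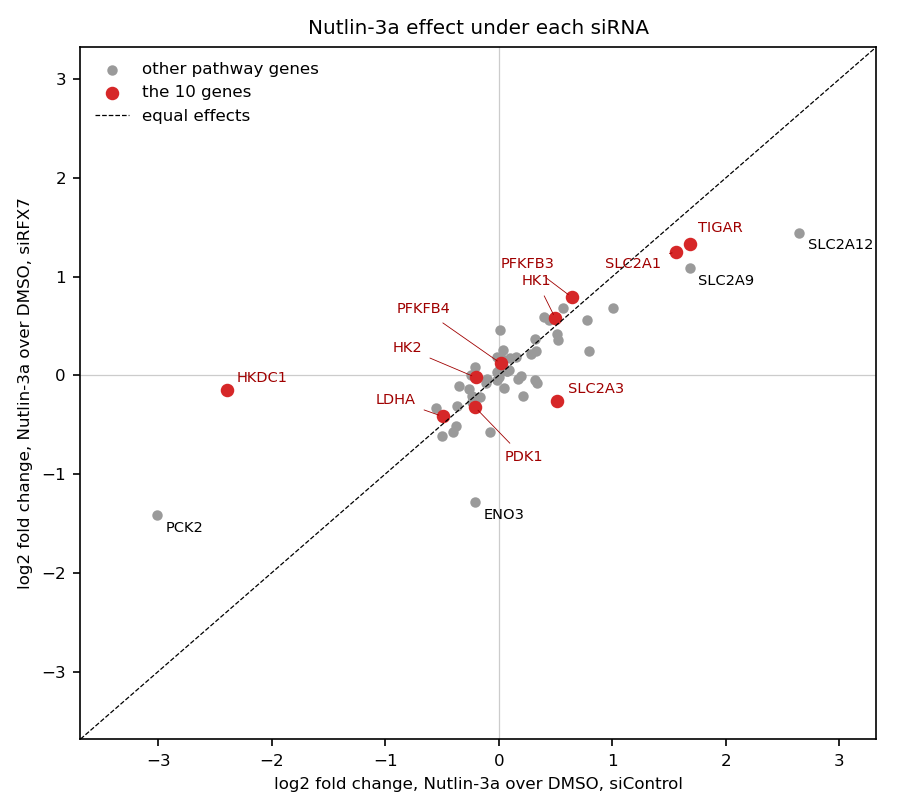
Log2 fold change with Nutlin-3a in siControl (x axis) and in siRFX7 (y axis) for the 10 genes (red) and 49 other pathway genes with a mean count of at least 10 (grey), from the authors' deposited tables; the dashed line marks equal effects. HKDC1 lies far to the left of that line at -2.40 and -0.15, PCK2 below zero on both axes and SLC2A1, TIGAR, SLC2A9 and SLC2A12 at the upper right.

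In the branch around pyruvate and lactate all 16 listed genes were measured. By the authors' deposited tables, 5 rose and 5 fell with Nutlin-3a in siControl, while 4 rose and 4 fell under siRFX7, with medians of 0.01 and -0.02. The PDK1 paralog PDK4 rose by 0.78 in siControl and 0.56 in siRFX7, whereas PDK3 fell by 0.50 and 0.62 (authors' deposited tables). SLC16A3, the lactate exporter MCT4, was not called in siControl at 0.01 (DESeq2 adjusted p 0.918) and rose by 0.46 in siRFX7 (adjusted p 6.21e-15, authors' deposited tables). The difference of those 2 effects was 0.45 (standard error 0.08). With siRFX7, 3 were higher and 4 lower in DMSO and 3 higher and 5 lower in Nutlin-3a (authors' deposited tables), with medians of -0.04 and -0.00. DLD, the shared dehydrogenase subunit of the pyruvate and related complexes, fell by 1.29 in DMSO and 1.16 in Nutlin-3a (standard error 0.05 each, DESeq2 adjusted p 3.86e-154 and 2.71e-125, authors' deposited tables).

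Of the 7 pentose phosphate genes, the authors' deposited tables called 2 higher and 3 lower with Nutlin-3a in siControl, and under siRFX7 2 higher and 1 lower, with medians of -0.02 and 0.08. With siRFX7 none was called higher, and 4 were lower in DMSO and 2 in Nutlin-3a (authors' deposited tables), with medians of -0.22 and -0.13. Among 7 genes of gluconeogenesis and related control, 5 were listed with Nutlin-3a and 4 with siRFX7. The authors' deposited tables called 2 higher and 2 lower with Nutlin-3a in siControl, and under siRFX7 2 higher and 1 lower. The siRFX7 tables called none higher, with 2 lower in DMSO and 1 in Nutlin-3a. The medians were -0.08, -0.57, -0.07 and -0.12 in that order. PCK2, mitochondrial phosphoenolpyruvate carboxykinase, had Nutlin-3a log2 values of -3.01 in siControl and -1.42 in siRFX7, and a siRFX7 log2 value of -1.82 in DMSO, all called (authors' deposited tables).

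**Figure D5:**
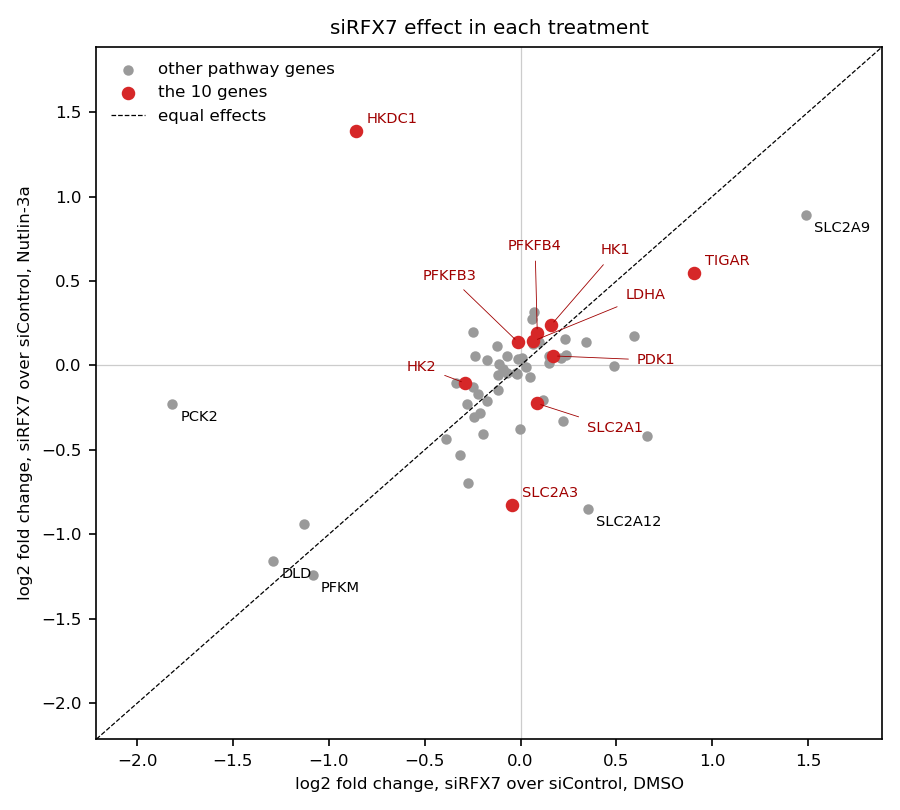
Log2 fold change with siRFX7 in DMSO (x axis) and in Nutlin-3a (y axis) for the 10 genes (red) and 49 other pathway genes with a mean count of at least 10 (grey), from the authors' deposited tables; the dashed line marks equal effects. TIGAR and SLC2A9 lie at the upper right, PFKM and DLD at the lower left, and HKDC1 at -0.86 and 1.39.

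Known regulators of these genes were measured in the same libraries. Of 11 sugar sensing and transcription factor genes 10 were listed. The authors' deposited tables called 8 higher and none lower with Nutlin-3a in siControl, and under siRFX7 6 higher and 1 lower. They called none higher and 3 lower with siRFX7 in DMSO, against 1 higher and 3 lower when Nutlin-3a was present. The medians were 0.30, 0.31, -0.05 and -0.05. MYC rose with Nutlin-3a by 0.87 in siControl and 0.48 in siRFX7, and HIF1A rose by 0.35 and 0.56 (authors' deposited tables). With siRFX7, MYC fell by 0.44 in DMSO, and its log2 value with Nutlin-3a was -0.83, while MLXIPL, the glucose-responsive factor ChREBP, fell by 0.56 in each (authors' deposited tables).

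The 12 hypoxia response genes outside glycolysis moved in both directions. The authors' deposited tables called 5 higher and 1 lower with Nutlin-3a in siControl, and under siRFX7 3 higher and 4 lower. They called 6 higher and 2 lower with siRFX7 in DMSO, against 2 higher and 3 lower when Nutlin-3a was present. The medians were 0.17, -0.10, 0.36 and -0.03. VEGFA fell with Nutlin-3a by 0.50 in siControl and rose by 0.26 in siRFX7, while NDRG1 rose by 1.52 and 1.30 (authors' deposited tables).

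The ATF4 target list, amino acid and stress genes, is given beside HKDC1 because its members include genes with a similar difference between siRNAs. The list was drawn up with earlier results of these data known, so a likeness to HKDC1 is part of the choice and supports nothing. Of 15 genes 14 were listed. Nutlin-3a lowered 12 and raised 2 in siControl and lowered 9 and raised 2 in siRFX7 (authors' deposited tables). The medians were -1.86 and -0.46. With siRFX7, 13 were lower and none higher in DMSO, and 6 lower and 2 higher in Nutlin-3a (authors' deposited tables). The medians there were -1.35 and -0.20. The 2 called higher with siRFX7 in Nutlin-3a were DDIT3 at 0.48 and SLC1A4 at 0.99 (authors' deposited table). The 6 called lower there were ASNS at -1.09, PHGDH at -0.70, CEBPB at -0.43, ATF3 at -0.34, PSAT1 at -0.28 and PCK2 at -0.23 (authors' deposited table). HKDC1 had the sign of the 2 called higher there. With Nutlin-3a in siControl and with siRFX7 in DMSO, HKDC1 had the sign of most called members. A shared cause was not tested. PCK2, which is also in the gluconeogenesis list, is a member.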

How the data were processed

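PolyA RNA of 12 libraries, 3 in each of 4 groups, was made from 500 ng of total RNA per the labels' protocols. The submitters' processing notes name featureCounts 1.6.5, DESeq2 1.20.0 and genome build hg38. The aligner, the annotation, and how strand or multiply matching reads were treated are not given in the sources used here. The authors deposited 4 tables. Per the file headers, these hold the mean normalized count (a signal, counts over size factors), log2 fold changes with standard errors, a test statistic (a score) and p-values with adjusted p-values. Values per library were not used here.

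Fold changes between siRNAs were taken to have siControl as the denominator: the 4 tables then closed to within 1.29e-14 log2 units, against a median error of 0.374 the other way. Calls use the authors' deposited adjusted p-value below 0.05 across all genes of a table. The planned count test needs counts per library, so its stated fallback, the authors' tests, was used. Group means were solved from the mean normalized count, taken as the plain mean of the groups, and the fold changes. The model dispersion was taken from the deposited standard errors with size factors of 1. The difference of Nutlin-3a effects was judged by a z test (two-sided), with Benjamini-Hochberg adjustment over 23195 genes, treating standard errors as known. Python 3.11.15, numpy 2.4.6, pandas 2.3.3 and scipy 1.17.1 were used, and the scripts were tested on simulated data.

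Exon lengths and positions came from GENCODE 29 and promoter windows from RefSeq. The genes named are the 10 members, RFX7, MDM2, CDKN1A, genes singled out from the lists, the 5 nearest to HKDC1, and pseudogenes, paralogs or overlapping genes of members. The members and lists were chosen with earlier results of these data known. Results for some genes of the lists are not reported here by name.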

Additional observations from a re-analysis of the deposited data

Results flagged for a closer look

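The difference between the Nutlin-3a effects under the siRNAs is listed for HKDC1, SLC2A3, TIGAR and SLC2A1, which a z test over all genes marked along with 6.2% of genes. HKDC1 was chosen by this contrast, so the values are a description and the marking supports nothing. The difference, siRFX7 minus siControl on the log2 scale, was 2.25 for HKDC1. It was -0.78 for SLC2A3, -0.36 for TIGAR and -0.31 for SLC2A1. HKDC1 and SLC2A3 are the least abundant of these 4, with mean counts of 65.8 and 97.0 and model coefficients of variation between replicates of 19.2% and 14.8%. The cause was not tested.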

How the results depend on the processing

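Counts here are over all 10 genes. They include HKDC1 and the difference of Nutlin-3a effects, which chose it, so nothing about stability is read from those calls. The share of all genes called under each changed setting was not computed, so the counts cannot be set against genes in general. A minimum absolute log2 fold change of 0.58 lowered the number called from 8 to 4 with Nutlin-3a in siControl, from 6 to 3 in siRFX7, from 4 to 2 with siRFX7 in DMSO, from 8 to 2 with siRFX7 in Nutlin-3a and from 4 to 2 for the difference of Nutlin-3a effects, by its construction. An adjusted p below 0.01 ended 5 of 50 calls or non-calls of single genes, those of HK2 with Nutlin-3a in siControl, PDK1 with Nutlin-3a in siRFX7, PFKFB3 and PFKFB4 with siRFX7 in Nutlin-3a and the difference for SLC2A3. Scaling to equal summed counts per group added LDHA and SLC2A1 as higher with siRFX7 in DMSO, which made 6 genes called, at 0.12 and 0.14. A mean count of at least 10, or adjustment over the genes listed in all 4 tables, changed no call of the 10 genes. Pearson distance shared 1 of the 5 genes nearest to HKDC1. No paired analysis was possible because the tables hold statistics of groups, and for the same reason no replicate could be left out. Group means from fewer tables were not run, since 2 tables leave a group undetermined. Depth per library is not known. HKDC1, SLC2A3 and PDK1, the least abundant of the 10 genes, had the largest standard errors, 0.12 to 0.27 on the log2 scale. Their model dispersions, the squared coefficient of variation beyond counting error, were 0.0215, 0.0115 and 0.00736, so counting error was not the whole of that spread.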
